A study of Mus musculus with 6 samples.

Results

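The 9 genes described here were grouped as genes of the tuberoinfundibular dopamine neurons: Th, Ddc, Gch1, Slc18a2, Slc6a3, Drd1, Drd2, Prlr and Nr4a2. Several of them also serve other cells, as described below, so the set is not read as a marker of these neurons alone. The genes were taken as every probe set that the array annotation pairs with 1 of these symbols alone. That gave 16 probe sets for 8 genes, out of 45037 probe sets for 18193 genes. Nr4a2 had 6 probe sets, Ddc, Gch1 and Drd1 had 2 each, and Th, Slc18a2, Slc6a3 and Drd2 had 1 each. No probe set is paired with Prlr in the annotation used, so Prlr itself was not analysed here.

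RNA came from arcuate hypothalamus microdissected at an age of 2 weeks from mice of mixed C57Bl/6J, FVB/N and 129 strain, and was read on 6 Affymetrix Mouse Genome 430 2.0 arrays. Of these, 3 held independent control samples (genotype Ctrl) and 3 held independent samples of POMCDicerKO mice, whose Pomc-expressing cells lack Dicer, the enzyme that cuts mature microRNAs from their precursors. The promoter that drives the deletion, the exact control genotype, and the number of animals behind each sample are not stated in the labels. The comparison addresses how the arcuate transcriptome differs when Pomc cells lack Dicer. It is read here for genes of a neighbouring cell type that the deletion is not named for.

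Tuberoinfundibular dopamine neurons lie in the arcuate nucleus and release dopamine into the portal vessels of the median eminence. There it reaches the pituitary and restrains prolactin release through D2 receptors, and prolactin in turn acts on prolactin receptors of the same neurons. Tyrosine hydroxylase (Th) makes L-DOPA with the cofactor tetrahydrobiopterin, whose first enzyme is Gch1, and Ddc turns L-DOPA into dopamine. Slc18a2 loads dopamine into vesicles, Slc6a3 takes it back up, and Nr4a2 is a nuclear receptor needed for midbrain dopamine neurons and able to activate Th and Slc6a3.

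The promoters of 4 of these genes are printed because Slc6a3 is the gene of the 8 whose groups separated, Th, Ddc and Slc18a2 are the steps before it, and Nr4a2 and cAMP signalling are known routes to their control. The sequences are from RefSeq on GRCm38.p6, on the gene's strand, each running from 250 bases before the transcript start. Capitals mark the cAMP response element TGACGTCA in Th (chr7:142899996-142900245, minus strand) and Slc18a2 (chr19:59260628-59260881, plus strand), the reverse complement of the Nr4a2 motif AAAGGTCA in Ddc (chr11:11898145-11898394, minus strand), and the GC box GGGCGG on either strand in Slc6a3 (chr13:73536497-73536746, plus strand).
Th: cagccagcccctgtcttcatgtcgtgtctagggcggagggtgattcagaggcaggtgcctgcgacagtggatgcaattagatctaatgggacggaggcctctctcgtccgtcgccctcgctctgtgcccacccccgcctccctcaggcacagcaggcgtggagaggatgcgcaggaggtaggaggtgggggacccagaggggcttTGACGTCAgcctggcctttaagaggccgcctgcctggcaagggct
Slc18a2: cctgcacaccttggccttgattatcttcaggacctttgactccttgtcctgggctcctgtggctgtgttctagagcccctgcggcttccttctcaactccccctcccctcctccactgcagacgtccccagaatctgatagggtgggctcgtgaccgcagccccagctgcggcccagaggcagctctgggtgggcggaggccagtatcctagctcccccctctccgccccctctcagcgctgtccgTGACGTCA
Ddc: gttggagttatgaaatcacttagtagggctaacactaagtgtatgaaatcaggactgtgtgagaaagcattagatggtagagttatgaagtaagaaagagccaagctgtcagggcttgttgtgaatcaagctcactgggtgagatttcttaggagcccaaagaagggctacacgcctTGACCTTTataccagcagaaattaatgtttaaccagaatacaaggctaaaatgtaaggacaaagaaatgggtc
Slc6a3: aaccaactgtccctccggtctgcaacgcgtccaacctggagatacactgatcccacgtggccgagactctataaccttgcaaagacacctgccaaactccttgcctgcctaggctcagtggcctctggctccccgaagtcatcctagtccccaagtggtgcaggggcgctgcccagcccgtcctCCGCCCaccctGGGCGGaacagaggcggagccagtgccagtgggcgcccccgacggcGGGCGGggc
All 9 genes have a window of 300 bases in that table, 250 before to 50 after a start, and with alternative starts they have 13. The palindrome TGACGTCA was found in 2 of the 13, at -45 to -38 in Th and at -4 to 4 in Slc18a2, against 1.79% of all 32851 windows. The Nr4a2 motif AAAGGTCA, searched on both strands, was found in 1 of the 13 (Ddc, -73 to -66, in 1 of its 2 windows) against 1.51% of all windows. TATAAA on either strand was in 3 of the 13 against 13.6%, and the one in Ddc overlaps its Nr4a2 motif. GGGCGG was in 8 of the 13 against 35.7%. These matches describe letters in a window, not sites in use.

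Values below are log2 expression levels after RMA, 1 unit being a doubling, and the scale ran from 3.05 to 14.4 over all probe sets. Differences are POMCDicerKO minus control from limma, with its standard error (SE) and 95% interval, and adjusted p values are Benjamini-Hochberg over all probe sets with a threshold of 0.05. A two-sided exact permutation test of 3 against 3 arrays cannot go below p = 0.1. Of the 16 probe sets, 8 were lower and 8 higher in POMCDicerKO (49.4% of all probe sets were lower), with a median difference of -0.0069 against 0.0012 over all probe sets. None of the 16 passed by limma (0 of 16), as for all probe sets (0 of 45037, 0%). At an unadjusted p under 0.05 there was 1 of 16, Slc6a3, against 2.44% of all probe sets, and groups did not overlap at 1 of 16, again Slc6a3, against 6.36%. The unadjusted count was 2 without control 1 or without POMCDicerKO array 2 (Gch1 joined) and 2 without control 2 (Slc18a2 joined). The share of all probe sets under 0.05 was not counted in these refits, so these counts have no background beside them. Without controls 1 and 2, Slc18a2 stood at -0.71 and Drd1 1456051_at at 0.38. In that fit the spread came from the POMCDicerKO arrays alone and control 3 was assumed to vary like them. Control 3 was the highest control for Slc18a2 and the lowest for Drd1 at 1456051_at. Over all probe sets 1 passed without control 1, 2 without control 3 and 1 without controls 1 and 2, and none of these was a probe set of the 8 genes.

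**Figure D1:**
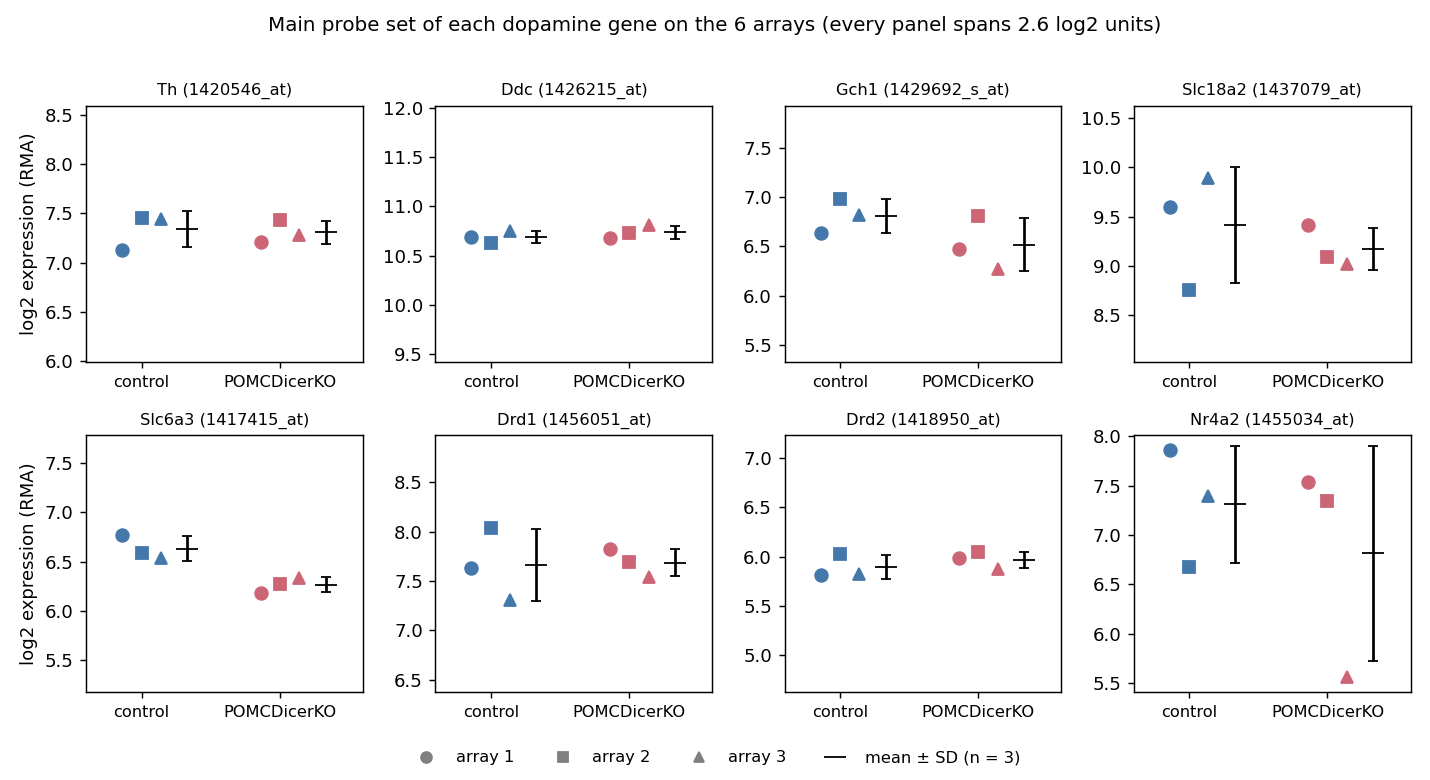
Log2 expression (vertical axes) of the main probe set of each of the 8 genes on the 3 control arrays (blue) and the 3 POMCDicerKO arrays (red). Symbols give the array number within its group, and black bars give the mean ± SD of 3 arrays. Slc6a3 is the panel in which the groups do not overlap, while Nr4a2 and Slc18a2 have the widest spread within groups.

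Tyrosine hydroxylase, the rate-limiting enzyme, differed between the groups by less than the spread of the arrays. Th (1420546_at, chromosome 7) read 7.12, 7.45 and 7.44 in controls and 7.21, 7.43 and 7.28 in POMCDicerKO. The low array of each group was array 1, and the groups overlapped fully. The means were 7.34 ± 0.19 and 7.31 ± 0.12 (SD, n = 3 each), a difference of -0.034 with an SE of 0.11 and an interval from -0.29 to 0.22 (limma adjusted p = 1). The interval therefore leaves room for a Th level lower by 0.29 or higher by 0.22, and the sign turned when single arrays were left out (-0.14 to 0.022).

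Ddc, the decarboxylase that acts after Th and also serves serotonin neurons, had the smallest spread within groups of the 8 main probe sets. Its main probe set (1426215_at, chromosome 11) read 10.69, 10.63 and 10.75 in controls and 10.68, 10.73 and 10.81 in POMCDicerKO. The difference was 0.046 with an SE of 0.069 and an interval from -0.11 to 0.20 (limma adjusted p = 1). The residual SD within groups was 0.063, lower than that of most probe sets. A second probe set, 1430591_at, lay near the lower end of the scale at 4.13 to 4.42 and differed by 0.061 with an SE of 0.090.

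Gch1, the GTP cyclohydrolase that starts cofactor synthesis, was lower on average at its main probe set but with overlapping groups. 1429692_s_at (chromosome 14) read 6.63, 6.98 and 6.82 in controls and 6.47, 6.81 and 6.27 in POMCDicerKO. POMCDicerKO arrays 1 and 3 lay below every control, and array 2 lay between controls 1 and 3. The difference was -0.29 with an SE of 0.15 and an interval from -0.63 to 0.047 (unadjusted p = 0.0822, limma adjusted p = 1, two-sided exact permutation p = 0.2). The second probe set, 1420499_at, read 6.201, 6.31 and 6.18 against 6.14, 6.47 and 6.02, a difference of -0.021 with an SE of 0.12. The probe sets thus gave the same array order within POMCDicerKO, highest on array 2 and lowest on array 3, and differed in size between the groups. In controls both were highest on control 2, but 1429692_s_at was lowest on control 1 and 1420499_at on control 3. Without POMCDicerKO array 2 the main probe set stood at -0.43, and without array 3 it stood at -0.17.

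Among 7 other measured genes of cofactor synthesis and dopamine breakdown (Pts, Spr, Qdpr, Pcbd1, Gchfr, Maoa and Maob), 4 were higher and 3 lower, with a median difference of 0.0021 against -0.0099 over all genes. None passed the limma threshold (0 in either direction) and 0 had an unadjusted p under 0.05, against 2.41% of all genes at their main probe sets. The smallest p values were those of Pcbd1, which recycles the cofactor (-0.093), and Maob, a monoamine oxidase (-0.17).

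Slc6a3, the dopamine transporter, separated the groups, with all 3 POMCDicerKO arrays below all 3 controls. Its probe set (1417415_at, chromosome 13) read 6.77, 6.58 and 6.54 in controls and 6.19, 6.28 and 6.34 in POMCDicerKO. The lowest control thus stood above the highest POMCDicerKO array. The means were 6.63 ± 0.13 and 6.27 ± 0.075 (SD, n = 3 each), a difference of -0.36 with an SE of 0.084 and an interval from -0.56 to -0.17, or 1.29-fold. The unadjusted limma p of 0.00272 ranked 39 of 45037 probe sets, but the adjusted p was 1, and the two-sided exact permutation p was 0.1. The mean level over all arrays was 6.45, at the 55.7th percentile of probe sets, and which cells gave this signal was not tested. Were such a difference to hold in more samples, tissue RNA could not tell its sources apart. Fewer dopamine neurons, less Slc6a3 RNA per neuron or a different make-up of the dissected tissue would read alike.

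The Slc6a3 difference kept its sign whichever array was left out, between -0.29 without control 1 and -0.41 without control 3. Meningeal transcripts moved with the groups: all 9 measured meningeal genes were lower in POMCDicerKO, against 55.1% of all genes. At an unadjusted p under 0.05 there were 5 (against 2.41% of all genes), among them Ptgds (-2.64) and the matrix proteoglycan Dcn (-1.33). The summed log2 level of the 9 genes was 11.4 to 13.9 in controls and 10.6 to 11.6 in POMCDicerKO. Control 3, at 11.4, lay within the POMCDicerKO range. With control 3 as the only control, Slc6a3 differed by -0.27 with an SE of 0.11 that rests on the POMCDicerKO arrays alone. Myelin genes were higher at all 8 measured members, where 55.1% of all genes were lower. Of the 8, 5 had an unadjusted p under 0.05 (against 2.41% of all genes), among them Mal at 0.57 and Ermn at 0.61. Mbp, at 0.12, was not among them. Summed myelin levels were 14.83 to 14.95 in controls and 14.94 to 15.32 in POMCDicerKO. The part of meningeal and myelin RNA in the Slc6a3 value was not tested. Genes found in most neurons had summed levels of 14.80 to 14.89 in controls and 14.85 to 14.97 in POMCDicerKO over 7 members, with Nefl at 0.11 and Rbfox3 at 0.20. Without POMCDicerKO array 1 Nefl stood at 0.038, and without control 2 Rbfox3 stood at 0.014.

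Slc6a3 and Drd1 both lie on chromosome 13. Of 1371 probe sets named on that chromosome, 59 had an unadjusted p under 0.05 (4.3%, against 2.44% of all probe sets), and 105 had groups that did not overlap (7.66%, against 6.36%). Drd1 was not among them, as described below. The genes whose array pattern lay nearest to that of Slc6a3, by root mean square difference of mean-centred log2 values over 6 arrays, were Perp (0.052), Gas1 (0.078) and the fatty acid transporter Cd36 (0.086), against 0.20 for the spread of Slc6a3 itself. Perp read 7.37, 7.14 and 7.11 in controls and 6.74, 6.85 and 7.04 in POMCDicerKO. Gas1 also lies on chromosome 13. For Th the nearest were Senp6 (0.024), Hipk1 (0.024) and Pla2g12a (0.027), against a spread of 0.13. Each was the nearest among 19684 probe sets of a mean of at least 6, compared over 6 arrays alone.

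**Figure D2:**
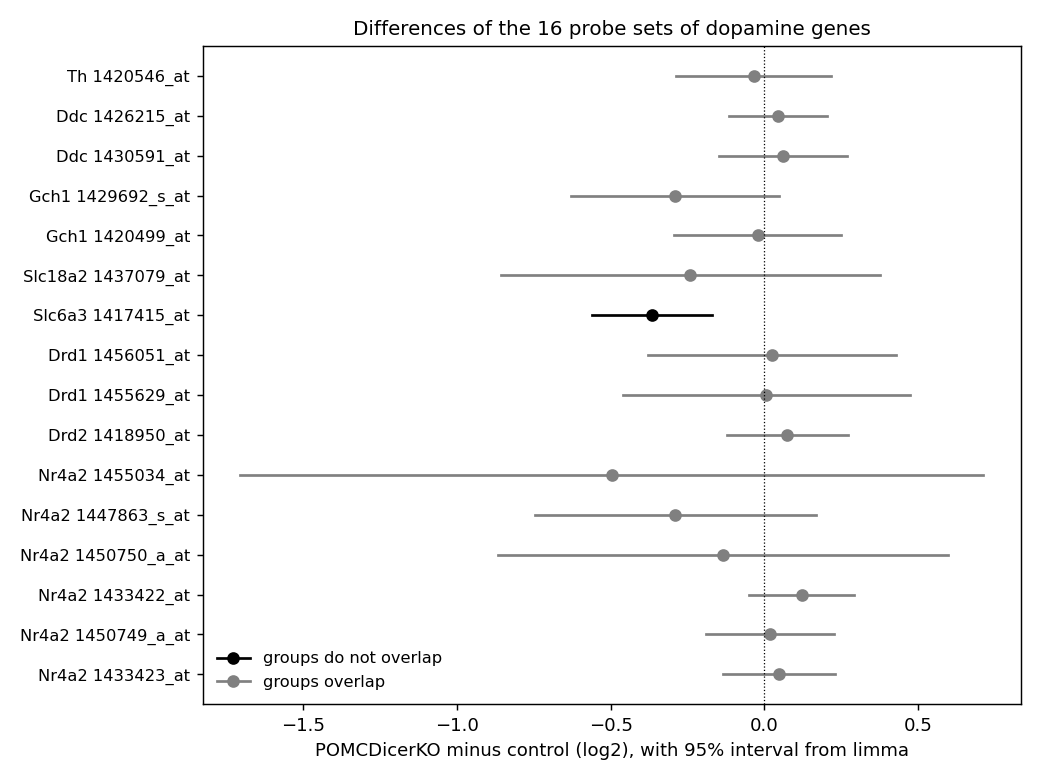
Difference between POMCDicerKO and control (horizontal axis, log2) with its 95% interval from limma for each of the 16 probe sets. Black marks a probe set whose groups do not overlap and grey one whose groups overlap; the Slc6a3 interval, from -0.56 to -0.17, excludes 0, and the other 15 intervals include it.

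Slc18a2, the vesicular monoamine transporter, varied more between arrays of 1 group than between the groups. 1437079_at (chromosome 19) read 9.59, 8.76 and 9.89 in controls and 9.41, 9.09 and 9.02 in POMCDicerKO. Control 2 was the lowest array and control 3 the highest, so the POMCDicerKO arrays fell inside the control range. The difference was -0.24 with an SE of 0.27 and an interval from -0.86 to 0.38 (limma adjusted p = 1). The residual SD of 0.44 was larger than that of 99.2% of probe sets. Without control 2 the difference was -0.57, at an unadjusted p under 0.05, and without control 3 it was -0.0036.

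Slc18a2 also serves the histamine neurons of the nearby tuberomammillary nucleus, marked by the histamine-synthesising enzyme Hdc. Hdc (1454713_s_at) read 9.74, 9.13 and 10.27 in controls and 9.95, 9.21 and 9.37 in POMCDicerKO. Hdc was lowest on control 2 and highest on control 3, as Slc18a2 was, and on both probe sets POMCDicerKO array 1 was the highest of its group. The Hdc difference was -0.21, of either sign when single arrays were left out (-0.50 without control 2 and 0.071 without control 3). Its part in the Slc18a2 values was not tested.

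Other monoamine neurons were read through a list of their genes. Of 6 measured genes of noradrenaline, serotonin and histamine neurons, Hdc included, 5 were lower, with a median difference of -0.052. None passed the limma threshold and 0 had an unadjusted p under 0.05. Their summed log2 level was 10.1 to 10.8 in controls and 10.1 to 10.5 in POMCDicerKO. Hdc, described above, was the largest term of this sum on every array, so the range says little about the other genes. The serotonin-synthesising enzyme Tph2 lay near the lower end of the scale on every array (3.79 to 3.97) and differed by -0.074. Dbh (1459848_x_at), which turns dopamine into noradrenaline, read between 7.63 and 7.71 on all arrays, a difference of -0.030. Its residual SD within groups was 0.029, and which cells gave this signal was not tested. The serotonin transporter Slc6a4 was at -0.11.

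**Figure D3:**
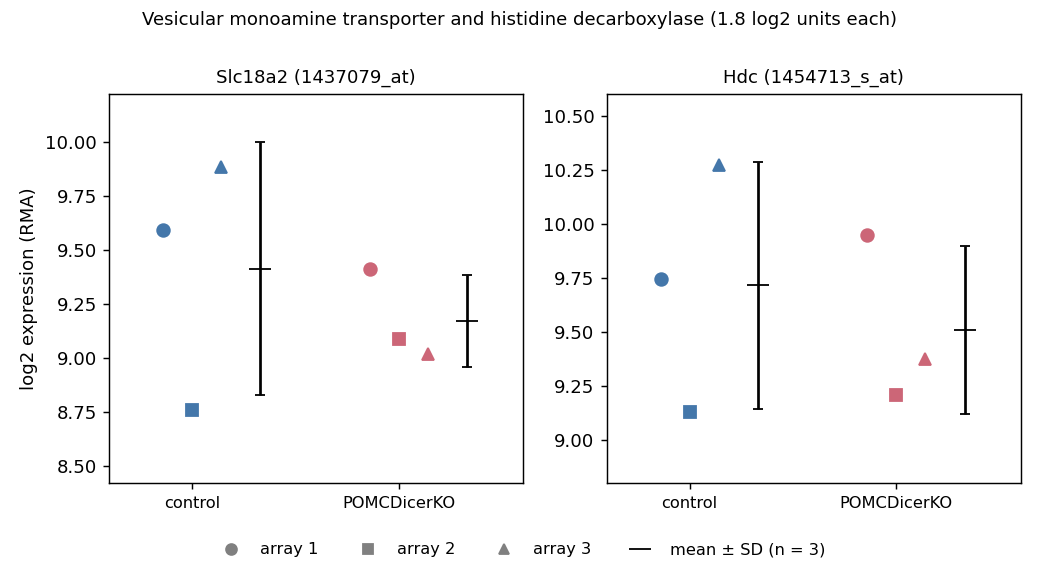
Log2 expression (vertical axes) of Slc18a2 and of Hdc on the same 3 control arrays (blue) and 3 POMCDicerKO arrays (red), with the mean ± SD of 3 arrays in black and symbols for the array number. On both probe sets control 2 (blue square) is the lowest and control 3 (blue triangle) the highest of all arrays.

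The dopamine receptors differed between the groups by less than the spread of their arrays. Drd2, the receptor through which dopamine inhibits its own neurons and the prolactin cells, read 5.82, 6.03 and 5.83 in controls and 5.98, 6.04 and 5.87 in POMCDicerKO (1418950_at, chromosome 9). The difference was 0.075 with an SE of 0.084 and an interval from -0.12 to 0.27 (limma adjusted p = 1). The groups overlapped, and array 2 was the highest of each.

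Drd1, the receptor that raises cAMP in the cells that receive dopamine, differed little on average at both probe sets and was uneven among the controls. 1456051_at read 7.64, 8.04 and 7.31 in controls and 7.82, 7.70 and 7.54 in POMCDicerKO, a difference of 0.025 with an SE of 0.17 and an interval from -0.38 to 0.43. 1455629_at read 6.32, 7.09 and 6.46 in controls and 6.80, 6.70 and 6.39 in POMCDicerKO, a difference of 0.0074 with an SE of 0.20. Control 2 was the highest array and POMCDicerKO arrays 1 to 3 kept the same order on both probe sets. With control 3 as the only control, 1456051_at stood at 0.38, control 3 being the lowest of all arrays on it.

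Drd1 and Drd2 are abundant in the striatum and Drd2 in the pituitary, so genes of those tissues were read beside them. Of 4 measured striatal genes, 1 was higher and 3 lower, with summed levels of 11.6 to 12.1 in controls and 11.8 to 11.9 in POMCDicerKO. At an unadjusted p under 0.05 there was 1 (against 2.41% of all genes), with groups that did not overlap (against 6.44% of all genes), and 0 passed the limma threshold. That was the phosphodiesterase Pde10a at 0.21, which stood at 0.13 without control 2 and was no longer under 0.05 without control 2 or without POMCDicerKO array 1 or 2. The dopamine-regulated phosphatase inhibitor Ppp1r1b, which is also in the signalling list below, was at -0.12. Adora2a was not analysed here. Of 6 measured pituitary genes, 2 were higher and 4 lower, and their summed level ranged from 8.75 to 10.2 in controls and from 7.75 to 10.004 in POMCDicerKO. No pituitary gene passed the limma threshold, and 3 had an unadjusted p under 0.05, Prl and Gh higher and Cga lower, against 2.41% of all genes. With single arrays left out, Prl kept this in 3 of 6 fits, Cga in 2 and Gh in 1, and the groups overlapped for all 6 genes. Growth hormone (Gh) read 8.92 and 8.34 on POMCDicerKO arrays 1 and 3 and 5.89 to 6.24 on the other 4 arrays. Cga, the common subunit of glycoprotein hormones, read 9.46, 9.87 and 7.80 in controls and 8.67, 5.08 and 6.27 in POMCDicerKO. Prolactin (Prl), the hormone this circuit restrains, lay near the lower end of the scale (4.06 to 4.65) with a difference of 0.31 and an interval from 0.038 to 0.59. The part of such RNA in the receptor values was not tested.

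Other genes of dopamine receptor signalling were mostly lower by small amounts. Of 8 measured (Drd3, Drd4, Gnal, Gnao1, Gnai2, Adcy5, Ppp1r1b and Arrb2), 7 were lower, with a median difference of -0.10, where 55.1% of all genes were lower. None passed the limma threshold, 1 had an unadjusted p under 0.05 (against 2.41% of all genes) and the same 1 had groups that did not overlap (against 6.44%). That was Arrb2, a beta-arrestin that binds activated D2 receptors, which read 8.57, 8.67 and 8.62 in controls and 8.48, 8.51 and 8.41 in POMCDicerKO. Its difference was -0.15 with an SE of 0.065 (unadjusted limma p = 0.0468, adjusted p = 1, two-sided exact permutation p = 0.1), and it was no longer under 0.05 whichever single array was left out (-0.18 to -0.12). Gnai2, an inhibitory G protein subunit, was at -0.14.

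In place of Prlr, 9 genes that carry the prolactin signal were read. Jak2, the kinase bound to the receptor, was at 0.063, and its target Stat5b, which mediates prolactin's action on these neurons, was at -0.067. Of the 9, 2 were higher and 7 lower, with a median difference of -0.043. None passed the limma threshold and 0 had an unadjusted p under 0.05. The feedback inhibitor Socs1 had the smallest p and stood at -0.11. Prlr is abundant in the choroid plexus, but Prlr itself was not read. Of 8 choroid plexus genes, 2 were higher and 6 lower, and Ttr ranged from 7.20 to 11.4 over the arrays. No gene of this list passed the limma threshold, and 1 had an unadjusted p under 0.05 (against 2.41% of all genes): Kl at -0.34, which stayed so with each single array left out (-0.42 to -0.29). Groups did not overlap at 2 of the 8 (against 6.44%), Kl, lower, and Slc4a5, higher by 0.081. Slc4a5 lay near the lower end of the scale on every array (3.92 to 4.04).

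Nr4a2 was the most variable of the 8 genes at its main probe set, and its probe sets differed in spread and in their lowest array. The main probe set, 1455034_at (chromosome 2), read 7.86, 6.68 and 7.40 in controls and 7.54, 7.34 and 5.56 in POMCDicerKO. POMCDicerKO array 3 was the lowest by a wide margin, control 2 was next, and the other 4 arrays lay between 7.34 and 7.86. The difference was -0.50 with an SE of 0.52 and an interval from -1.71 to 0.71 (limma adjusted p = 1). It turned to 0.13 without POMCDicerKO array 3, and its residual SD of 0.88 was larger than that of 99.9% of probe sets.

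The next 2 probe sets repeated that array pattern at smaller size. 1447863_s_at read 7.25, 6.50 and 6.71 against 6.71, 6.61 and 6.27, and 1450750_a_at read 6.85, 6.07 and 6.66 against 6.76, 6.74 and 5.68. On each, POMCDicerKO array 3 was the lowest and control 2 the next lowest, with differences of -0.29 (SE 0.20) and -0.13 (SE 0.31). The remaining 3, 1433422_at, 1450749_a_at and 1433423_at, did not have POMCDicerKO array 3 as their lowest. They differed by 0.12 (SE 0.073), 0.020 (SE 0.090) and 0.049 (SE 0.078), and their residual SDs were 0.077, 0.12 and 0.090. Control 2 was the lowest array on each of them, at 1450749_a_at nearly level with POMCDicerKO array 2. Their mean levels over all arrays were 6.14, 5.56 and 4.66, against 7.06, 6.67 and 6.46 for the first 3. The labels do not state which transcript parts these probe sets read.

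**Figure D4:**
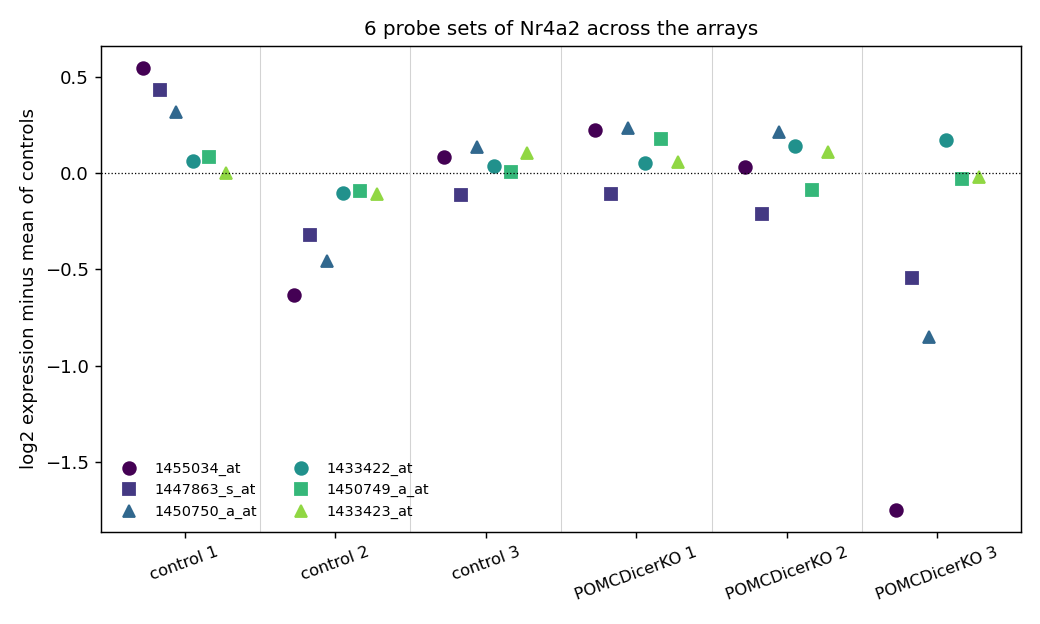
Log2 expression of the 6 Nr4a2 probe sets on each array, minus the mean of the 3 controls of that probe set (vertical axis). The probe sets 1455034_at, 1447863_s_at and 1450750_a_at are lowest on POMCDicerKO array 3. On control 2 all 6 probe sets lie below 0, and the other 3 vary less across the arrays.

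The relatives Nr4a1 and Nr4a3, which like Nr4a2 are induced rapidly by neuronal activity, were also uneven. Nr4a1 read 9.82, 9.31 and 9.41 in controls and 9.46, 9.29 and 9.07 in POMCDicerKO, a difference of -0.24 with an SE of 0.15. Nr4a3 read 8.95, 8.37 and 8.51 in controls and 9.28, 9.57 and 8.25 in POMCDicerKO, a difference of 0.42 with an SE of 0.32. POMCDicerKO array 3 was the lowest of all arrays for both relatives. The same held for Nr4a2 at 1455034_at, 1447863_s_at and 1450750_a_at, but not at its remaining probe sets. Neither relative passed the limma threshold (adjusted p = 1 for both).

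Transcription factors of hypothalamic and midbrain dopamine neurons were read beside Nr4a2. Of 10 measured hypothalamic factors, 5 were higher and 5 lower, with a median difference of 0.0023. None passed the limma threshold, 2 had an unadjusted p under 0.05, both higher (against 2.41% of all genes), and 3 had groups that did not overlap (against 6.44%). Onecut2 read 6.14, 5.58 and 5.91 in controls and 6.46, 6.24 and 6.25 in POMCDicerKO, a difference of 0.44 with an SE of 0.14 (unadjusted limma p = 0.0154, adjusted p = 1, two-sided exact permutation p = 0.1). Dlx6 read 6.25, 6.35 and 6.25 in controls and 6.39, 6.59 and 6.56 in POMCDicerKO, a difference of 0.23 with an SE of 0.076 (unadjusted limma p = 0.0169, adjusted p = 1, two-sided exact permutation p = 0.1). In both genes every POMCDicerKO array stood above every control. Onecut2 stood at 0.29 without control 2 and was no longer at an unadjusted p under 0.05 without POMCDicerKO array 1, and Dlx6 was not without control 1, control 3 or POMCDicerKO array 2. The third was Dlx5, named here after its values were seen, which separated the other way: it read 7.41, 7.41 and 7.52 in controls and 7.27, 7.39 and 7.18 in POMCDicerKO, a difference of -0.17. Of 8 midbrain dopamine neuron genes, 5 were higher and 3 lower, 0 passed the limma threshold, and 1 had an unadjusted p under 0.05 (against 2.41% of all genes) and groups that did not overlap (against 6.44%). That was Lmx1b at -0.22, which stood at -0.12 without control 1 and was no longer under 0.05 without control 1 or without any 1 POMCDicerKO array. En2 was at 0.14.

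Genes of the transmitters that arcuate Th neurons can release beside dopamine differed by small amounts. Of 7 genes (Gad1, Gad2, Slc32a1, Ghrh, Penk, Nts and Gal), 4 were higher and 3 lower, with a median difference of 0.011 and 0 with an unadjusted p under 0.05. Gad1 and Gad2, which make GABA, stood at 0.040 and 0.052. The arcuate peptide Ghrh ranged from 7.71 to 9.01; array 2 was the highest of each group. Of 5 measured arcuate genes all were lower, with 0 past the limma threshold and 1, Pomc, at an unadjusted p under 0.05 (against 2.41% of all genes), which it no longer was without POMCDicerKO array 1 or 3. Pomc was at -0.69, with -0.35 without control 2 and -0.91 without control 3, and Tbx3 at -0.53, with -0.24 without POMCDicerKO array 1, -0.26 without control 2 and -0.79 without POMCDicerKO array 2. The list had summed levels of 12.28 to 13.03 in controls and 11.44 to 12.44 in POMCDicerKO. Npy was the largest term of this sum on every array, so the range follows Npy more than the other genes. Npy differed by -0.64 with overlapping groups and was lowest on POMCDicerKO array 1, at 10.38. Agrp and Kiss1 were not analysed here. Of the defining arcuate markers read, Pomc, Npy, Tac2 and Ghrh were all well above the lower end of the scale on every array.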

How the data were processed

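RNA of 3 control and 3 POMCDicerKO samples was measured on 1 array each. The authors deposited log2 expression values, made with RMA and the affy package per the submitters' processing notes (no version stated). RMA normalises arrays by quantiles, so a shift shared by most transcripts is removed, and differences near the lower end of the scale are compressed. The table held 45101 probe sets, and 64 array controls among them were not tested. The gene table for the array gave 1 symbol to 34945 probe sets, several to 932 and did not list 9160; symbols were updated by Entrez ID through the RefSeq table of GRCm38.p6 (34741 found). The main probe set of a gene has the highest mean over all arrays. Groups were taken from sample titles and compared with limma 3.58.1 in R 4.3.3 (lmFit, eBayes) over all 45037 probe sets. Scripts were tested on simulated data. The number of arrays limits the precision; array medians were 6.02 to 6.05, Pearson r between arrays was 0.994 to 0.997, and unused sample columns numbered 0.

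The members and the 15 gene lists were chosen with earlier results of these data known, so a list is described by counts and its median, without a test. Named genes are all member probe sets, from every list up to 2 genes by smallest unadjusted p, and fixed markers of other cells. A list's summed level is log2 of its summed linear values. Patterns like those of Th and Slc6a3 were the nearest 3 genes with a mean of at least 6. Alternatives were array centring, further quantile normalisation, filters, trend, robust or no prior, array weights, 1 probe set per gene, the mean of a gene's probe sets, a replicate block, leaving out each array, and leaving out controls 1 and 2, which stand apart in meningeal transcripts.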

Additional observations from a re-analysis of the deposited data

How the results depend on the processing

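Over 260 refits of the 16 member probe sets, 235 kept the sign, 25 turned it and 0 passed the limma threshold. Slc6a3 stayed between -0.27 and -0.41 in all of them. The count of all probe sets past the threshold was 0 to 2 with single arrays left out and 1 without controls 1 and 2, and was 0 under the other settings. Without controls 1 and 2, where the lone control was assumed to vary like the POMCDicerKO arrays, no member count at an unadjusted p is given. The share of all probe sets at an unadjusted p under 0.05 was not counted in any refit. The count of member probe sets at an unadjusted p under 0.05 was 1 to 2 with single arrays left out. With the replicate number as a block it was 2 (Slc6a3 and Gch1 1429692_s_at), with 0 past the threshold. Deviations from the group means correlated between arrays of the same number at r = 0.13, 0.079 and 0.12 across probe sets. Arrays of different numbers were not compared in this way, so these values do not decide whether the number carries a shared effect. The numbers were not taken as pairs because the labels give independent samples and no batch. Of 14 named list genes at an unadjusted p under 0.05, the block lost 3 (Arrb2, Lmx1b and Pde10a), it gained 2 others (Tbx3 and Nr4a1), and 4 (Dcn, Ermn, Kl and Ptgds) stayed under it with every single array left out. With single arrays left out, ranges that crossed 0 were -0.14 to 0.022 for Th, -0.0076 to 0.12 for Ddc 1430591_at, -0.15 to 0.073 for Gch1 1420499_at, -0.15 to 0.21 for Drd1 1456051_at, -0.14 to 0.24 for Drd1 1455629_at, and for Nr4a2 -0.86 to 0.13 at 1455034_at, -0.36 to 0.22 at 1450750_a_at, -0.059 to 0.075 at 1450749_a_at and -0.0062 to 0.10 at 1433423_at. Without controls 1 and 2, Ddc 1426215_at turned to -0.016, Gch1 1420499_at to 0.030 and Nr4a2 1433423_at to -0.058. With array weights Gch1 1420499_at turned to 0.038, Nr4a2 1450750_a_at to 0.015 and Ttr to 0.20. With centred arrays Drd1 1455629_at was at -4.1e-05. The 35 named list genes, refitted the same way by a choice made after seeing the data, kept their sign in 574 of 579 refits; single arrays left out gave -0.50 to 0.071 for Hdc, -0.0058 to 0.085 for Gad2 and -1.28 to 0.82 for Ttr. The cause of these changes was not tested. Filters on dim probe sets left Ddc 1430591_at, Drd2, Nr4a2 1450749_a_at and Nr4a2 1433423_at without a value.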
